A study of Mus musculus with 7 samples.

Results

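Broad acetylated promoters without Chd7 are the long H3K27ac domains that lie over the start of a protein-coding transcript in granule neuron progenitors and carry no called peak of the remodeller Chd7. They were chosen on the H3K27ac and Chd7 peaks themselves: an H3K27ac peak on chromosomes 1 to 19, at least 3000 bp long, that holds the start of a GENCODE M21 protein-coding transcript and overlaps no Chd7 peak of wild-type (WT) cells. This gave 210 regions among 31400 H3K27ac peaks, 30723 of them on chromosomes 1 to 19. A further 84 peaks met the length and start rules and overlapped Chd7, and these serve as the comparison. No Chd7 peak was thus called at 71.4% of the 294 broad acetylated promoters (95% Wilson interval 66 to 76.3%). In 1 library, a peak that was not called does not show that Chd7 was absent. Of all H3K27ac peaks on the same chromosomes, 5.06% overlapped Chd7. The length, height and enrichment of H3K27ac and the Chd7 overlap are therefore given as descriptions.

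Acetylation of lysine 27 on histone H3 marks active promoters and enhancers, and domains that spread for several kilobases around a start are often found at genes that define a cell's identity. Chd7 is an ATP-dependent nucleosome remodeller of the CHD family, known mostly for binding at active regulatory elements, and mutated in CHARGE syndrome. Top2b is the topoisomerase of post-mitotic neurons that relieves DNA supercoils by cutting and rejoining both strands, and it is known for its part in the transcription of long genes. Granule neurons, the most numerous cells of the cerebellum, arise after birth from progenitors that divide in response to Sonic hedgehog.

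H3K27ac and Chd7 were measured by ChIP-seq in granule neuron progenitors (GNPs) taken freshly from P7 pups (C57BL/6 in the labels, C57BL/6N in the study's methods), and Chd7 also in Chd7-deficient GNPs. Top2b was measured in WT and Chd7-deficient cerebellar granule neurons (CGNs), which are GNPs kept for 48 h in culture without SHH. In the study's methods Chd7 was deleted with Atoh1-Cre from floxed alleles (Atoh1-Cre::Chd7 f/f), a driver active in the granule cell lineage, and the cells were enriched on a percoll gradient and not sorted. Each of the 5 libraries analysed here was the only one of its condition, so no value has a replicate and no test between conditions was made. The intervals below cover counting over regions only. Because these are bulk preparations, a mark in fewer cells and a weaker mark in each cell cannot be told apart.

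The label of the cells was checked against marker genes. Of 10 markers of GNPs, 8 had an H3K27ac peak at a start, and all 8 of these peaks were broad (Zic1, Zic2, Pax6, Barhl1, Meis1, Neurod1, Mycn and Ccnd2). No peak was called at a start of Atoh1 or Gli1, the gene that drives the lineage and a direct target of the hedgehog pathway. Peaks were found at 3 of 10 markers of Purkinje cells, 4 of 10 of Bergmann glia and astrocytes, 2 of 9 of the oligodendrocyte lineage and 2 of 10 of inhibitory interneurons, none of them broad, and at 0 of 10 markers each of microglia and of endothelial and mural cells. Among those without any peak were Calb1, Gfap, Olig2, Gad2, Aif1 and Pecam1.

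The starts under these regions differ in sequence, from starts without a single CpG to dense CpG islands. The 150 bases just before the start nearest to the H3K27ac summit (called the representative start below) are shown for 7 of them and, for comparison, for Mycn and Ptch1, whose regions hold Chd7. All were read from the mm10 genome (GRCm38) and are written 5′ to 3′ on the strand of the gene. Capitals mark matches, on either strand, to any of the 11 short motifs described with the sequence results. Those of Nhlh1 and Nfix come from starts poor in CpG, the others from starts rich in it. Nhlh1 and Nfix encode transcription factors of the granule lineage, Marcks an actin-binding protein, Gria2 an AMPA receptor subunit, Map3k1 a kinase upstream of JNK, Chd2 another remodeller of the CHD family and Eef2 the translation elongation factor.
Nhlh1 (chr1:172057574-172057723, minus strand): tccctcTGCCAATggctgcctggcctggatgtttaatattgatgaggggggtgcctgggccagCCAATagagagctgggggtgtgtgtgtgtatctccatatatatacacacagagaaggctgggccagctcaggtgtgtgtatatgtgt
Nfix (chr8:84774370-84774519, minus strand): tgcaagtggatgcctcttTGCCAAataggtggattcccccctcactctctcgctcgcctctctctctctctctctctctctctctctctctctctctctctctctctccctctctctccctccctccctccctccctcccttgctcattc
Marcks (chr10:37138921-37139070, minus strand): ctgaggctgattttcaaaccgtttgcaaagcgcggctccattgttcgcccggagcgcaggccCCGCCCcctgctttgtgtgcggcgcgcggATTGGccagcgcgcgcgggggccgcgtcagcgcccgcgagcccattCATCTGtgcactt
Gria2 (chr3:80802836-80802985, minus strand): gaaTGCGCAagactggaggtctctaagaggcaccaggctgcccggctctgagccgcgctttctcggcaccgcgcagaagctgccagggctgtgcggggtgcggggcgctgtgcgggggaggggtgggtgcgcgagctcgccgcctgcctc
Map3k1 (chr13:111808316-111808465, minus strand): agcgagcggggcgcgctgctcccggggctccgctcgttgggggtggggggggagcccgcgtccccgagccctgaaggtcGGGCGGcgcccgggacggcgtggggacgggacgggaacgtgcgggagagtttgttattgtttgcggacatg
Chd2 (chr7:73537622-73537771, minus strand): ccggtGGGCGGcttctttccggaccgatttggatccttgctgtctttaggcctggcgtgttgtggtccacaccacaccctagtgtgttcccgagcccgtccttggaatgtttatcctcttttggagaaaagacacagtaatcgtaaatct
Eef2 (chr10:81176481-81176630, plus strand): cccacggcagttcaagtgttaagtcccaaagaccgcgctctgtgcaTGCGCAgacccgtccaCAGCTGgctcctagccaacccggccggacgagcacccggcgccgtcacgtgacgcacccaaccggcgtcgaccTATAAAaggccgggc
Mycn (chr12:12941915-12942064, minus strand): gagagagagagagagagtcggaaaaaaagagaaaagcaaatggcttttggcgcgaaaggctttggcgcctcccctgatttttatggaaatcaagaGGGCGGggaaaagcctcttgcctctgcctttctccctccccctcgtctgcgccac
Ptch1 (chr13:63565736-63565885, minus strand): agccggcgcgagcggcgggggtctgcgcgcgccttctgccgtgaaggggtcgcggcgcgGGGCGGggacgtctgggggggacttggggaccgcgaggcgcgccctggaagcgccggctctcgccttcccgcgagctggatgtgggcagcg
The upstream sequence of Nhlh1 held 0 CpG dinucleotides and that of Nfix 2, against 20 for Marcks, 15 for Gria2, 21 for Map3k1, 8 for Chd2 and 17 for Eef2. Those of Mycn and Ptch1 held 7 and 25.

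The members ranged from 3016 to 23086 bp with a median of 3783.5 bp, and 163 of the 210 were shorter than 5000 bp. The comparison regions had a median of 3751.5 bp and reached 25227 bp. No Chd7 peak was called at 70.8% of the broad promoters of 3000 to under 3500 bp (75 of 106) and 72.9% of those of 3500 to under 4000 bp (43 of 59). The share was 80.4% at 4000 to under 5000 bp (45 of 56) and 64.4% at 5000 bp or more (47 of 73, interval 52.9 to 74.4%). It thus did not run in 1 direction with length. The H3K27ac pileup, a count of fragments stacked at the summit that the peak caller scaled, had a median of 132 over the members (range 41.4 to 336) and 163 over the comparison regions. The enrichment over the local background had medians of 16.4-fold and 20.6-fold. Acetylated promoters from 1000 bp up to the 3000 bp limit without Chd7, of which there were 3835 and which are called shorter promoters here, had a median pileup of 93.2 and a median enrichment of 11-fold. H3K27ac peaks of every kind covered 28.7 Mb of chromosomes 1 to 19, and the 210 members, 0.684% of the peaks, held 3.31% of that length (0.951 Mb).

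**Figure D1:**
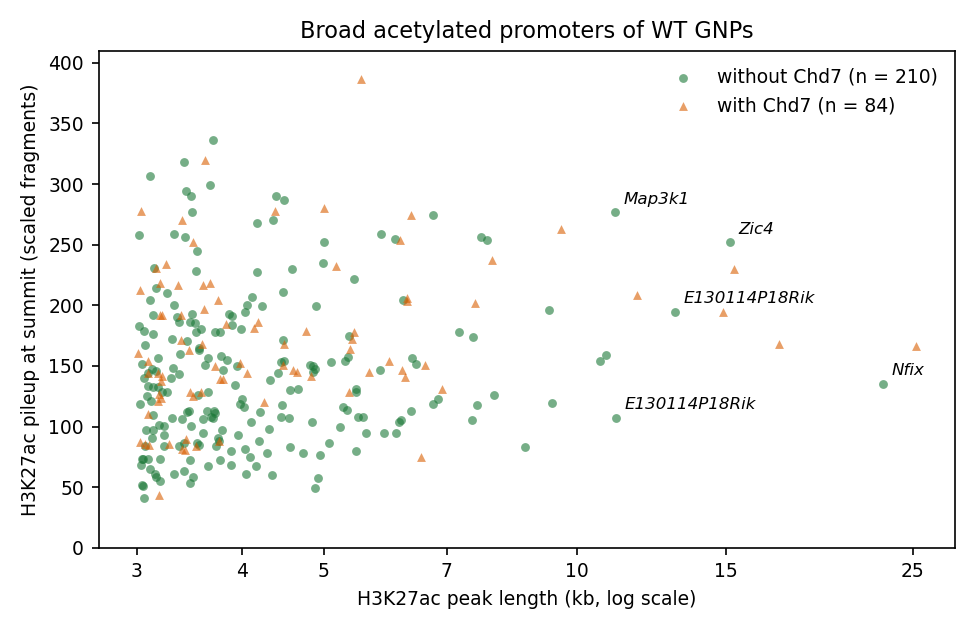
Length of each H3K27ac peak in kb (log scale) against its pileup at the summit (scaled fragments) in WT GNPs, for 210 broad acetylated promoters without Chd7 (circles) and 84 with it (triangles); the 5 longest members are named. Lengths run from 3016 to 23086 bp without Chd7 and from 3007 to 25227 bp with it, and the pileup medians are 132 and 163.

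Regulators of the granule lineage led the list by length. The longest member was a domain of 23086 bp inside Nfix, a nuclear factor I gene (chr8:84768236-84791321, pileup 135.53), which lies over internal transcript starts and ran 16952 bp upstream and 6133 bp downstream of the representative start. Next came a domain of 15174 bp at Zic4, a zinc finger gene of the granule lineage (chr9:91375391-91390564, pileup 252.24), and one of 13058 bp at the divergent start region of E130114P18Rik and the nuclear factor I gene Nfia (chr4:97777578-97790635). A second region of E130114P18Rik followed with 11121 bp and then Map3k1 with 11088 bp, whose pileup of 276.71 was also among the 10 highest. Tcf4, the E protein that pairs with proneural bHLH factors, had 10804 bp, Celf2, a neuronal splicing regulator, 10652 bp, and Pax6, a homeobox gene of GNPs, 9334 bp. Another Zic4 region had 9248 bp and Nfib 8672 bp. The remaining 5 of the 15 longest were the kinase gene Akt2 (7956 bp), the cell cycle gene Cdk2ap1 (7818 bp), Xkr7 (7693 bp), Gm5089 (7603 bp) and Frmd4a (7517 bp).

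Height picked out other genes than length. The members with the highest pileup were Actg1, which encodes cytoplasmic gamma actin, with 336 in a region of 3699 bp (chr11:120347294-120350992), Bicral with 318.12, Zc3h4 with 306.83, Ubald1 with 299.3 and the 14-3-3 gene Ywhaz with 294.59. They were followed by Ddx39b, an RNA helicase gene, and Mus81, a nuclease gene, both with 289.88, Prdm10 with 287.06, and Map3k1 and the receptor phosphatase gene Ptprs with 276.71 each. Map3k1 was the only gene among both the 15 longest and the 10 highest. Of the 10 highest, 9 held the outermost start of a gene and 9 had a CpG ratio of at least 0.6, against 6 and 9 of the 15 longest. At the length limit, the members just inside were Spata2 (3016 bp), Setbp1 (3020 bp) and Prickle2 (3026 bp), and the peaks just short of it were Hnrnpu (2994 bp), Bloc1s1 (2992 bp) and Msl1 (2988 bp). The 5 longest comparison regions were at Zic2 (25227 bp), Zic4 with Zic1 (17354 bp), Nfib (15333 bp), Mab21l1 (14913 bp) and Meis1 (11761 bp), also regulators of transcription or of development. At least 10 kb were reached by 7 members and 5 comparison regions.

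Some genes had starts in both classes. Zic4 is the clearest: its 3 broad regions lay within 41.93 kb (chr9:91348635-91390564), separated by 60 and 94 bp without a called peak, and only the first of them, which also holds the start of Zic1, overlapped Chd7. Nfib had its longest broad domain with Chd7 and another without, at the outermost start of the gene. Tcf4 had 3 regions without Chd7 and 1 with it, and Prdm8 had 1 of each. Celf2 had 3 members and no comparison region, and genes with 2 members each included the splicing regulator Rbfox3, Adgrg1, Fam53b, Git2, Gse1, Mapk8ip1, Numa1 and Zmynd8. The regions of 1 gene are not independent of each other.

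The distance to Chd7 varied widely. The nearest Chd7 peak was 226474 bp away at the median, over 100 kb away for 149 of the 210 members, within 10 kb for 19 and within 5 kb for 8. The closest cases were Myt1, a zinc finger gene of neuronal differentiation (1236 bp), the histone genes Hist1h3g (1336 bp) and Hist1h2bf (1558 bp), Bahcc1 (1635 bp) and Smarcd2, a BAF subunit gene (2933 bp). In all 5 the Chd7 peak lay in another H3K27ac peak. The gene Chd7 itself was a member, through an internal start (chr4:8749110-8752807, 3698 bp, pileup 107.29) that lay 6823 bp from the nearest Chd7 peak. None of the 96 Chd7 peaks called in Chd7-deficient GNPs overlapped a member, a comparison region or a shorter promoter. For members the rule fixed part of this outcome, because 62 WT Chd7 peaks overlapped a Chd7 peak of the Chd7-deficient GNPs. The absence is therefore not a trait of the members. In the comparison regions there were 97 Chd7 peaks, 52 of them (53.6%) with the summit within 500 bp of the representative start. Their median −log10 q was 4.38, the weakest, at Ing1, had 1.51 and the strongest, at Trib1, reached 12.7. When only Chd7 peaks with −log10 q of at least 5 were counted, 88.1% of the broad promoters were without Chd7. The split between the classes therefore depends on this limit.

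The domains were laid out unevenly around the start. They extended further downstream than upstream in 149 of 210 members (71.0%, 64.5 to 76.7%), with medians of 1416.5 bp upstream and 2499 bp downstream. Of the comparison regions 64.3% were longer downstream (53.6 to 73.7%), and of the shorter promoters 67.6% (66.1 to 69.1%). The summit lay 215.5 bp downstream at the median, but often far from the representative start. It was within 500 bp in 59.0% of members, 63.1% of comparison regions and 94.8% of shorter promoters. In the longest members, at Nfix and Zic4, it lay 10299 bp upstream and 8400 bp downstream. Barhl1, a homeobox gene of GNPs, had 113 bp upstream and 5787 bp downstream of its representative start, and Nhlh2 had 147 and 3903 bp. Nhlh1 was the opposite case, with 5201 bp upstream and 2034 bp downstream. Another H3K27ac peak lay within 12.5 kb of 79.5% of the members (73.6 to 84.4%) and of 75% of the comparison regions, but of 43.2% of the shorter promoters.

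Fewer members than shorter promoters held the outermost start of a gene. It was present in 137 of 210 members (65.2%, 58.6 to 71.4%), 66 of 84 comparison regions (78.6%, 68.7 to 86.0%) and 3220 of 3835 shorter promoters (84%, 82.8 to 85.1%). The other 73 members held only internal starts, as at Nfix, Chd7, the longest Celf2 and Tcf4 regions and the cyclin gene Ccnd2. At Ccnd2 the internal start lay 3 bp from the edge of a region of 3059 bp with the lowest pileup of all members, 41.41. Whether these starts are in use was not measured. Genes of the members were long, with a median of 44.8 kb against 18.9 kb in the comparison and 28.2 kb at shorter promoters, and 33.8% exceeded 100 kb (27.8 to 40.4%) against 26.2%, 15.4% and 11.4% of all protein-coding genes. Among members with an outermost gene start the share over 100 kb was 26.3% and the median 28.5 kb. Under the same restriction the comparison regions had 19.7% and 9.51 kb, and shorter promoters 12.6% and 25.2 kb.

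CpG content divided the same way. The CpG observed/expected ratio in 1000 bp around the representative start was at least 0.6 in 64.8% of members (58.1 to 70.9%), 77.4% of comparison regions (67.4 to 85%), 85.7% of shorter promoters and 47.2% of all protein-coding genes. In regions that hold an outermost gene start, the shares were 80.3% of members (72.8 to 86.1%), 81.8% of comparison regions and 89.4% of shorter promoters. The representative start of such a region need not be the outermost one. With internal starts only, they were 35.6% (25.6 to 47.1%), 61.1% (38.6 to 79.7%) and 66.3%. Examples of representative starts with a low ratio were those of Nhlh1 (0.0699), Myt1 (0.117), Btbd17 (0.146) and Pcbp4 (0.173). That of Pcbp4 lay 2806 bp from the outermost start of the gene. High ratios were found at Cadps2 (1.03), En2 (1.002) and Map3k1 (0.984).

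**Figure D2:**
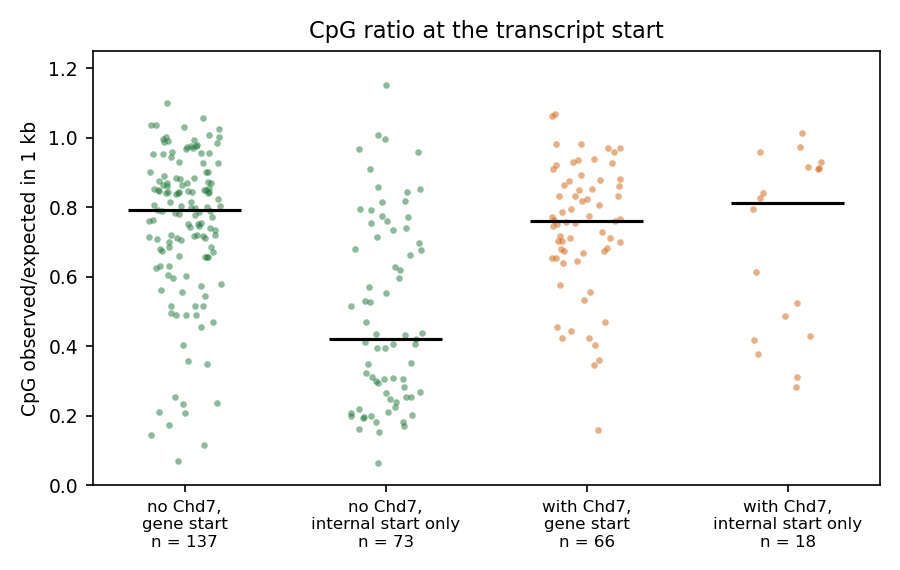
CpG observed/expected ratio in 1 kb around the representative start of broad acetylated promoters without Chd7 (green) and with it (orange), split by whether the region holds the outermost start of a gene; points are regions and lines are medians. The 73 members with internal starts only have a median of 0.420, below the 0.791 of the 137 members with a gene start.

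Short motifs were searched from 250 bp upstream to 50 bp downstream of each representative start, on both strands, as a description of the letters in this window. The E-box letters of bHLH factors were searched as CAGATG, which is the form of neuronal factors. A second E-box form was CAGCTG, which reads the same on both strands. GACCACCCA stood for Gli factors and TTGGCA for part of a nuclear factor I site. The palindrome TGCGCA stood for Nrf1 sites. Ets factors were represented by CCGGAAG alone. The basal promoter letters were the TATA box TATAAA. The CCAAT box was searched by the letters of its name. GGGCGG stood for Sp factors, the palindrome TGACGTCA for Creb, and AAGATGGC for Yy1. A nuclear factor I match and a CCAAT box can share bases. CCGGAAG was found in 4.76% of members (2.61 to 8.54%), 3.57% of comparison regions and 20.4% of shorter promoters (19.2 to 21.7%), against 11% of all protein-coding starts. TGCGCA gave 4.29%, 8.33%, 14.8% and 9.42% in the same order, and GGGCGG 55.7%, 65.5%, 69.2% and 43.7%. CAGATG went the other way, with 17.6% of members (13.1 to 23.3%), 14.3%, 9.31% and 15.4%. The second E-box form, CAGCTG, did not share this order, with 12.4% of members (8.59 to 17.5%), 13.1%, 15.4% and 15.5%. In regions that hold an outermost gene start the values for CCGGAAG were 5.84% of members and 22.3% of shorter promoters. For CAGATG they were 14.6% and 8.88%, and CpG content differs between these groups as given above. GACCACCCA was rare, in 2 members and no comparison region. In the sequences above, Nhlh1 shows CCAAT and TTGGCA letters without any CpG, Gria2 and Eef2 show TGCGCA, and Marcks shows a CAGATG match near its start. TATAAA appears in the sequence of Eef2, close to the start.

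Top2b was measured in other cells and libraries than those that chose the regions, so its peaks can be compared between them. In WT CGNs a Top2b peak overlapped 105 of 210 members (50%, 43.3 to 56.7%) and 42 of 84 comparison regions (50%, 39.5 to 60.5%), a difference of 0 percentage points with a 95% Newcombe interval of −12.4 to 12.4. Of all H3K27ac peaks, 9.48% overlapped such a peak. In Chd7-deficient CGNs the shares were 62.9% of members (132 regions, 56.1 to 69.1%) and 70.2% of comparison regions (59 regions, 59.8 to 79.0%), against 18.5% of all H3K27ac peaks. That difference, members minus comparison, was −7.38 points with an interval of −18.4 to 4.83. No difference between promoters with and without Chd7 was detectable at these numbers in either genotype, and differences up to the ends of these intervals cannot be told from 0.

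Length has to be considered beside the shares, since a longer region has more room for a peak. Shorter promoters without Chd7 overlapped Top2b in 18% of cases in WT CGNs (16.8 to 19.3%) and 40.9% in Chd7-deficient CGNs (39.4 to 42.5%), so that members exceeded them by 32.0 points (25.2 to 38.8) and 21.9 points (15.1 to 28.4). Per kb of H3K27ac, a measure chosen after the shares were seen, members held 0.126 Top2b peaks in WT CGNs, comparison regions 0.127 and shorter promoters 0.120. In Chd7-deficient CGNs the densities were 0.178, 0.189 and 0.271 per kb. Per kb the WT densities lay close together, and in Chd7-deficient CGNs shorter promoters had the highest. A Top2b peak counted with 1 bp of overlap, so it could reach past either edge of a region. That raises the density of shorter regions more, and these densities are therefore not fully corrected for length. The window around the start described below gave members a higher WT share than shorter promoters. Broad peaks with neither a start nor Chd7 overlapped Top2b in 27.6% (WT) and 38.7% (Chd7-deficient) of 344 cases. Within the members, the WT share was 41.3% at 3000 to under 3500 bp, 48.8% at 3500 to under 4000 bp, 55.6% at 4000 to under 5000 bp and 59.6% at 5000 bp or more, and the intervals of neighbouring classes overlap.

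A fixed window around the start searches the same number of bases in every region. It does not remove every effect of length, since it lay wholly inside the H3K27ac peak for 89.0% of members and 57.4% of shorter promoters. A Top2b centre lay within 500 bp of the representative start in 21% of members (16.0 to 27%), 20.2% of comparison regions and 13.8% of shorter promoters (12.7 to 14.9%) in WT CGNs, where members exceeded shorter promoters by 7.16 points (2.07 to 13.3). In Chd7-deficient CGNs it was 33.8%, 40.5% and 34.9%, and the difference between members and shorter promoters was −1.05 points (−7.30 to 5.75). Among regions that hold an outermost gene start, the WT shares were 24.1% of members and 13.3% of shorter promoters. The Chd7-deficient shares there were 36.5% and 35%. In the comparison between members and regions with Chd7, the start windows differed by 0.714 points in WT CGNs (−10.3 to 10.1) and by −6.67 points in Chd7-deficient CGNs (−19.0 to 5.22).

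**Figure D3:**
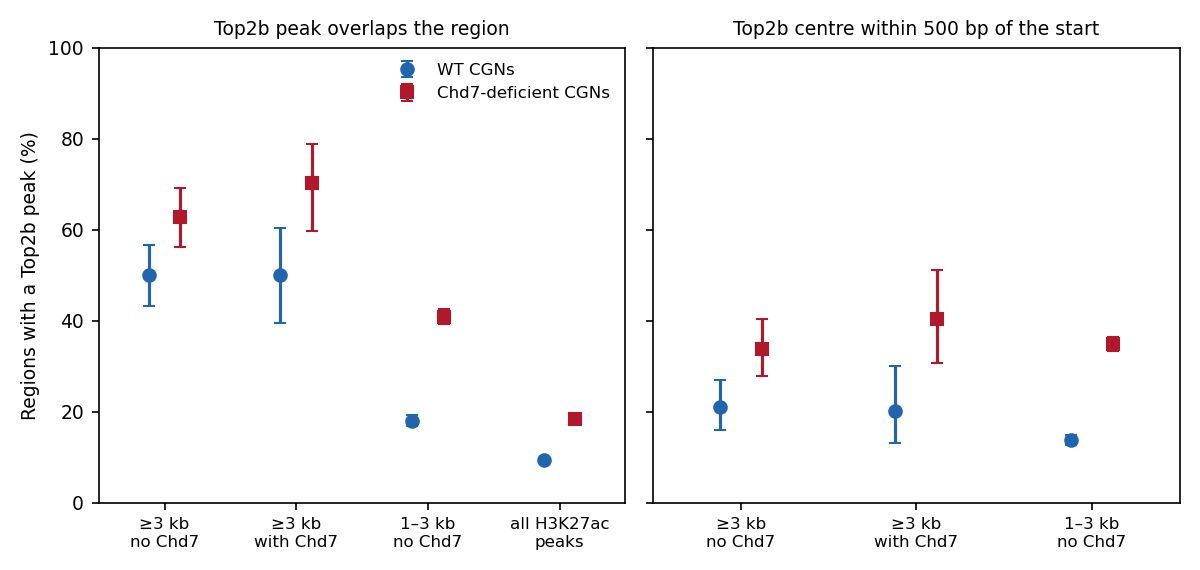
Share of regions (%) that overlap a Top2b peak (left) or have a Top2b centre within 500 bp of the representative start (right), in WT CGNs (circles) and Chd7-deficient CGNs (squares), with 95% Wilson intervals that cover counting over regions. Broad promoters without and with Chd7 lie side by side at 50% in WT CGNs, and at the start the members are at 21% in WT and 33.8% in Chd7-deficient CGNs.

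The Top2b tables of the genotypes differed in size and position. They listed 17030 peaks of 396 bp in WT and 21505 peaks of 400 bp in Chd7-deficient CGNs, and on chromosomes 1 to 19 only 2852 overlapped, 16.9% of the WT peaks and 13.3% of the others. At H3K27ac peaks of GNPs lay 17.4% of the WT and 26.5% of the Chd7-deficient Top2b peaks. With 1 library each, genotype, depth and the quality of the precipitation cannot be told apart, and a peak called in 1 table only is not shown to differ between genotypes.

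At the members, 79 had Top2b in both tables, 26 in WT only, 53 in Chd7-deficient only and 52 in neither. The comparison regions gave 35, 7, 24 and 18. Over all H3K27ac peaks, 4.99% had both, 4.49% WT only and 13.5% Chd7-deficient only, so at members as at all peaks the Chd7-deficient table held more. Of the 120 Top2b peaks of WT CGNs in members, 44 had their centre within 500 bp of the start, 54 lay further downstream and 22 further upstream, and 58 (48.3%) overlapped a peak of the other table. Of 169 in Chd7-deficient CGNs, 71 lay within 500 bp of the start, 62 downstream and 36 upstream, and 34.3% were shared. The share of Top2b peaks found in both tables was thus higher at these regions than the 16.9% and 13.3% over the genome, and it was 44.4% and 30% at comparison regions. The genome-wide shares include Top2b peaks outside H3K27ac. Counted by region, Chd7-deficient CGNs also had Top2b at 79 of the 105 members with WT Top2b. The counts were 457 of 691 for shorter promoters and 1534 of 2912 for all H3K27ac peaks, so such sharing is not particular to members.

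**Figure D4:**
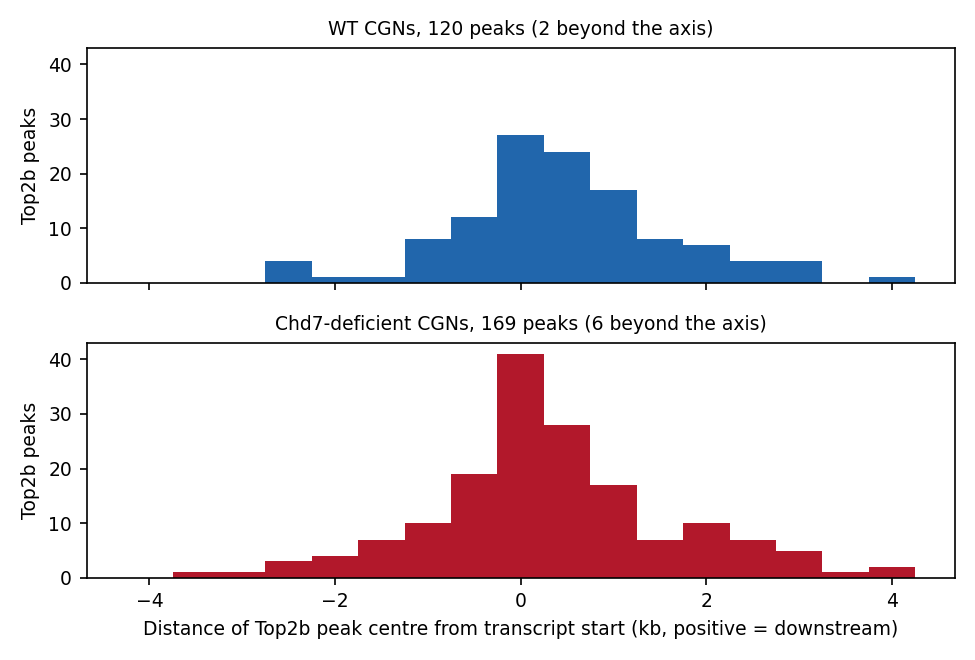
Number of Top2b peaks in broad acetylated promoters without Chd7 by the distance of their centre from the representative start (kb, positive downstream, bins of 500 bp), in WT (top, 120 peaks) and Chd7-deficient CGNs (bottom, 169 peaks). In both, the highest bin is at the start, and more peaks lie downstream than upstream. The members themselves reach further downstream (median 2499 bp) than upstream (1416.5 bp), and the counts are not corrected for this.

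Cadps2, a gene of 577 kb whose product primes dense-core vesicles for release, illustrates a Top2b peak at a start in WT cells alone. Its region (chr6:23834962-23840057, 5096 bp, pileup 153.41) held a WT Top2b centre 148 bp downstream of the start and no peak in Chd7-deficient CGNs. The nearest Chd7 peak lay 33748 bp from this region. The paper reports Chd7 binding at Cadps2 in GNPs and less Top2b at its promoter in Chd7 mutant CGNs. Top2b in WT CGNs only was the less frequent case, with 26 members against 53 in Chd7-deficient CGNs only. Map3k1 also had a WT peak only, with its centre 85 bp upstream of the start. Gria2 and the microtubule-associated gene Map1b had a WT peak only as well, but 2221 and 1372 bp downstream of the start. At Cacna2d1, a calcium channel subunit gene, and at Chd2, both tables held a centre within 500 bp of the start, though the peaks did not overlap each other, and at Stmn2, a gene of microtubule dynamics in growing axons, a peak lay 2149 bp downstream in Chd7-deficient CGNs only. Neither table held Top2b at the tubulin gene Tubb3, the hedgehog effector Gli2, the BAF subunit gene Dpf2, or Eef2. The Nfix domain held 1 WT and 2 Chd7-deficient peaks, the longest Zic4 domain 2 and 3, and the longest Tcf4 region 0 and 4.

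The Top2b shares were also set beside gene length. Of 71 members at genes over 100 kb, 43 overlapped a Top2b peak in WT CGNs (60.6%, 48.9 to 71.1%), against 62 of 139 at shorter genes (44.6%, 36.6 to 52.9%). In Chd7-deficient CGNs it was 69.0% (57.5 to 78.6%) and 59.7% (51.4 to 67.5%). The comparison regions gave 68.2% of 22 and 43.5% of 62 in WT CGNs. In each of these cases the share was higher at genes over 100 kb and the intervals of the separate shares overlapped. Such overlap does not show that the shares are alike, and no interval of these differences was computed. Among shorter promoters the intervals did not overlap. There the WT shares were 30.3% (26.7 to 34.1%) at genes over 100 kb and 15.8% (14.6 to 17.1%) at shorter genes. In Chd7-deficient CGNs they were 49.9% (45.9 to 53.9%) and 39.3% (37.6 to 41.0%).

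The genes under the members were then grouped by function. Protein-coding genes with a start in a member numbered 212, 1.02% of the 20757 examined, and those with a start in a comparison region 96, or 0.462%. The lists were drawn up with earlier results of these data known and are described by counts, beside these shares. Over all 8136 genes with an H3K27ac peak at a start, the longest such peak had a median of 1189.5 bp.

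Transcription factors of the granule lineage stood furthest from that level. Of 49, 15 had a start in a member (30.6%) and 8 in a comparison region (16.3%), with Zic4, Nfib and Tcf4 in both, and the longest peak at a start had a median of 4051 bp over the 37 with any. Members were Zic4, Pax6, Barhl1, the nuclear factor I genes Nfia, Nfib and Nfix, the bHLH genes Nhlh1, Nhlh2 and Tcf4, the corepressor gene Cbfa2t3, the homeobox genes Lhx1, En2 and Uncx, and the zinc finger genes Zfp521 and Zbtb18. Regions with Chd7 held Zic1, Zic2, Zic4, Neurod1, Meis1, Nfib, Sox11 and Tcf4. The 18 member regions of this list had Top2b in WT CGNs in 12 cases and in Chd7-deficient CGNs in 16, and the 7 comparison regions in all cases in both. Nfib had neither at its outermost start, while Zbtb18 had a WT peak only.

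Genes of the hedgehog pathway were split between the classes. Of 27, 4 had a start in a member, among them Gli2, the main activator, Boc, a co-receptor, and Ccnd2, a cyclin induced in GNPs, while Ptch1, the receptor that is also a target, Mycn, the mitogenic transcription factor, and the kinase gene Gsk3b had one in a comparison region. The 4 members had pileups between 41.41 and 100.71, against 128.94 to 184.47 in the 3 with Chd7. Boc (3479 bp) and Gli2 (4882 bp) held an outermost gene start. These heights belong to what chose the regions and are descriptions.

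Of 45 genes of DNA replication and mitosis, none had a start in a member and 1 in a comparison region, the cell cycle inhibitor gene Cdkn1b. With 1.02% and 0.462% of all genes in these classes, a list of this size is too short to read a lack of members from. In the same list, 34 had some H3K27ac peak at a start, of median 1540 bp. Ribosomal and translation genes had 1 of 33 in a member, Eef2 (3232 bp, pileup 100.71), and none in a comparison region, with 30 acetylated at a median of 1346 bp. Most replication and ribosomal genes thus had an acetylated start of ordinary length.

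Neuronal genes were present in both classes. Of 53 genes of the neuronal cytoskeleton, migration and axon growth, 6 had a start in a member: Tubb3 and Tuba1a, which encode neuronal tubulins, Map1b, Stmn2, Marcks and Basp1. Their regions spanned 3080 bp at Stmn2 to 5850 bp at Marcks, whose pileup of 258.83 was the highest of the 6. In the comparison there were 5, Tubb2b, Map2, Stmn1, the netrin receptor gene Unc5c and Sema6a. Of 38 synaptic and channel genes, 4 had a start in a member (10.5%), among them Cadps2, Gria2 and Cacna2d1, and none in a comparison region. The 5 regions of this list had Top2b in WT CGNs in 4 cases and in Chd7-deficient CGNs in 2. Among 39 RNA processing genes, Celf2, Elavl4 and Msi1, all neural RNA-binding proteins, had a start in a member, each through internal starts, and Hnrnpa2b1 had one in a comparison region.

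Chromatin and stress genes were found in both classes. Of 57 chromatin remodellers and modifiers, Chd2, Chd7, Smarcd2 and Dpf2 had a start in a member and Arid1a, Bcl7a, Kmt2e, Setd1b and Brd2 in a comparison region. Of 34 immediate early and stress genes, 5 were members, the AP-1 genes Jun and Jund, Ier2, Atf4 and the chaperone gene Hsp90ab1 (14.7%), and Btg2 was in the comparison. Ier2 had Top2b at its start in both genotypes, and Jun had 2 WT and 3 Chd7-deficient Top2b peaks away from its start. Of 33 Notch, Bmp and Id genes there was 1 in each class, Smad7 and Numbl.

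**Figure D5:**
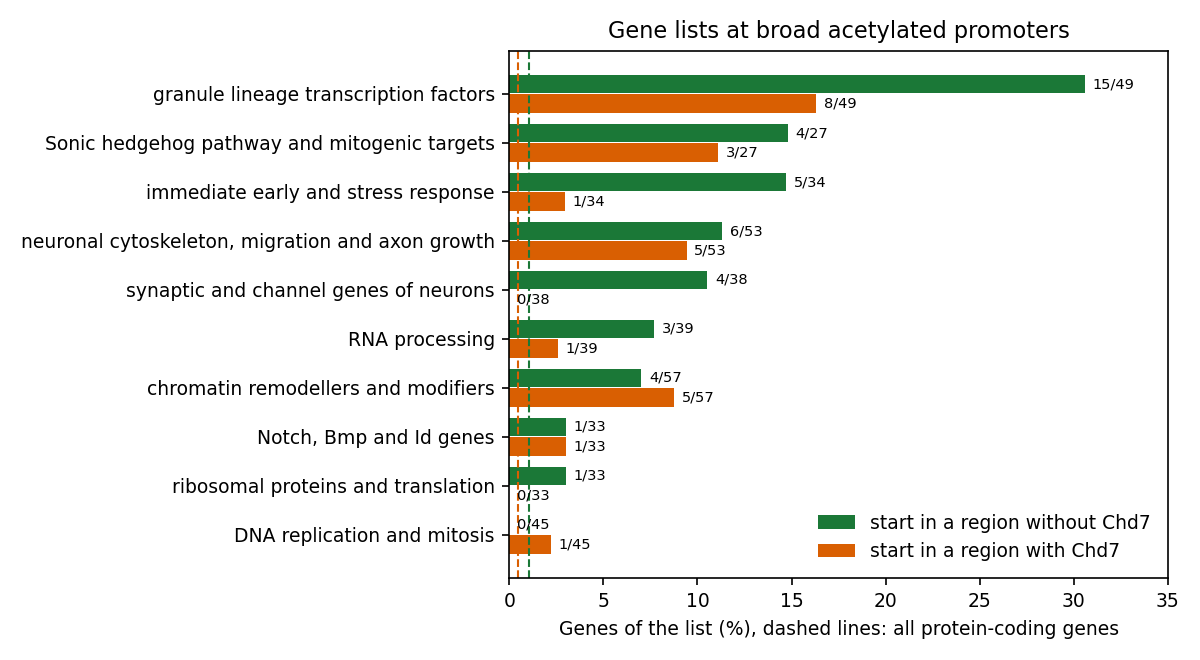
Share of the genes of each of 10 lists (%) with a start in a broad acetylated promoter without Chd7 (green) or with it (orange); labels give the genes counted of those annotated, and dashed lines the shares of all protein-coding genes, 1.02% and 0.462%. Granule lineage transcription factors reach 15 of 49 and 8 of 49, and DNA replication and mitosis genes 0 and 1 of 45.

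A gene list that the study derived from its own expression data was also looked up, by name only. This list of transcripts lower in Chd7-deficient GNPs held 151 names, of which 121 were matched to the annotation used here. Of these 121, 6 had a start in a member (4.96%), among them Cacna2d1, Cadps2, Gng2, Peli2 and Stmn2. In a comparison region there were 5, B3galt2, Gpm6a, Kcnj3, St18 and Tubb2b (4.13%). The shares of all protein-coding genes were 1.02% for members and 0.462% for comparison regions. The list rests on cells of the same kind from the same study and is not independent of these data. Peli2, a ubiquitin ligase gene, had Top2b at its start in WT CGNs and a peak elsewhere in its region in Chd7-deficient CGNs, and Gng2 had none in either.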

How the data were processed

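The 5 deposited peak tables (H3K27ac and Chd7 of WT GNPs, Chd7 of Chd7-deficient GNPs, and Top2b of WT and Chd7-deficient CGNs) were used, 1 library per condition. The authors trimmed reads with Trim Galore, mapped them to mm10 with Bowtie 1.0.0 keeping single alignments, and called GNP peaks with MACS2 at default parameters and Top2b peaks with HOMER findPeaks. The deposited pileup is a coverage signal at the summit, scaled in the H3K27ac table. Decimal marks lost from the enrichment and −log10 q columns were restored by dividing the digits by 100000. The control libraries used by the peak callers are not given in the sources used here. Library depth is not in the tables.

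Regions were intersected with GENCODE M21 starts of protein-coding transcripts (mm10) and with the other tables (1 bp overlap or more) in Python 3.11.15 with pandas 2.3.3, numpy 2.4.6 and pysam 0.24.0. Intervals are 95% Wilson (shares) and Newcombe (differences). Overlap counting and intervals were checked on simulated data. No test was made. Members and gene lists were chosen with earlier results of these data known. Named regions were the 15 longest, the 10 of highest pileup, the 5 nearest to Chd7, those at the length limit, the 5 longest with Chd7, and listed genes. Others named for starts in several regions, distance or CpG ratio were chosen after their values were seen, and so were the histone genes. The 5 strongest Top2b regions could not be chosen, since those tables hold no score. The first 20 bases of 1071 of 1086 protein-coding transcripts of member genes equalled the genome at the annotated start. The 11 members on chromosome 18 enter the CpG and motif shares, but none of their sequence is printed. Some listed genes and a sequence are not reported here.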

Additional observations from a re-analysis of the deposited data

How the results depend on the processing

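Of 57 values recomputed under another setting, 45 stayed within the interval of the value reported (counts within 1.5 times, medians within 1 SD over regions) and 12 moved further. A minimum length of 2500 bp gave 397 members with Top2b at 40.8% in WT CGNs, and one of 4000 bp gave 92 members at 57.6%, with 62.2% of comparison regions. Only outermost gene starts left 137 members. Chd7 peaks with −log10 q of at least 5 put 88.1% of broad promoters in the class without Chd7. Counting Top2b centres within 500 bp of the start gave 21% and 33.8% of members in WT and Chd7-deficient CGNs, and 20.2% and 40.5% of comparison regions. Over whole peaks the median GC content of comparison regions was 54.9%, against 63.9% around the start. The difference in the WT Top2b share between members and comparison regions ran from −8.11 to 4.75 points over all settings and was 0.752 when weighted over length classes. The setting with the higher-scoring Top2b peaks was not run, because those tables hold no score. No paired analysis was possible because each condition has 1 library and no test was made.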

Other observations

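Histone genes of the clusters on chromosome 13 and elsewhere appeared in both classes, and were looked at after their values were seen. There were 6 members over genes named Hist, of 3097 to 4041 bp with pileups from 61.18 to 177.88, 3 of them on chromosome 13, with Hist1h3g, Hist1h2ag and Hist1h2bf as representative genes. The other 3 were at Hist2h4, Hist2h2ab and Hist3h2ba. Another 4 regions, all on chromosome 13, overlapped Chd7 (Hist1h2bb, Hist1h2bc, Hist1h2bl and Hist1h2bn), with lengths of 3186 to 4491 bp and pileups of 43.29 to 168.47. A Top2b peak lay in 2 of the 6 members in WT CGNs and in 4 in Chd7-deficient CGNs, and in 1 of the 4 comparison regions in each genotype. Histone genes lie close together in near-identical copies, and reads with more than one alignment were not kept, so their peaks are uncertain.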
